A study of Mus musculus with 12 samples.

Results

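The vacuolar proton pump (V-ATPase) genes of mouse liver are described here by 10 subunit genes of the 54838 genes in the deposited count table. *Atp6v0d1*, *Atp6v0d2*, *Atp6v0a1*, *Atp6v0b* and *Atp6v0c* encode parts of V0, the sector in the membrane, and *Atp6v1a*, *Atp6v1b2*, *Atp6v1c1*, *Atp6v1d* and *Atp6v1h* encode parts of V1, the sector on the cytosolic side. They were chosen by a measured value, since *Atp6v0d2* stood out in this same table for its response to zinc in dexamethasone-injected mice (zinc-Dex against water-Dex), so the zinc-Dex and water-Dex values of that gene are a description and carry no test. The other 9 genes were taken as subunits of the same pump, and no p-value is given for any of the 10 in the comparison that led to the choice.

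Livers came from 12 adult C57BL/6J mice, 3 in each group. Mice of this strain were bought as females. The control group, water-PBS, drank normal water for 7 days and was injected intraperitoneally with PBS. Zinc-PBS mice drank water holding 25 mM ZnSO4 over those days before the PBS injection. Water-Dex and zinc-Dex mice had the same drinking water as these groups and were injected with 200 µg of dexamethasone (Dex), a synthetic glucocorticoid that acts through the glucocorticoid receptor. All livers were sampled 2 h after the injection, so the time on zinc and the time on Dex differed. The comparisons ask what zinc alone, Dex alone and both together did to the liver transcriptome. The total was 9091152 to 12303527 assigned reads per library. Whole liver was sequenced, and with bulk RNA fewer cells of a type and less RNA per cell cannot be told apart.

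The V-ATPase uses the energy of ATP to move protons into lysosomes, endosomes and other vesicles. In V1, subunits A and B form the ring that hydrolyses ATP and subunit D is the central stalk, which turns with the ring of c subunits in V0, while subunit a offers the path for protons. Subunit d sits on top of the membrane ring and joins it to the stalk, and C and H belong to the outer parts that hold the sectors together, H also being needed to keep the free V1 sector from hydrolysing ATP. Some subunits have isoforms from separate genes. *Atp6v0d1* encodes the widely expressed d subunit, whereas *Atp6v0d2* encodes the d isoform best known from osteoclasts, macrophages and kidney.

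The d-subunit pair matters most here, because the isoforms behaved differently and a read must be assigned to one or the other. *Atp6v0d2* (ENSMUSG00000028238) lies on the minus strand of chromosome 4 (GRCm38, 19876841 to 19922605), and *Atp6v0d1* (ENSMUSG00000013160) on the minus strand of chromosome 8 (105524465 to 105566047). The longest protein-coding transcript of each gene was searched, and other exons were not. No stretch of 50 bases of either transcript occurred in the transcripts of another annotated gene, which was also the case for *Atp6v0a1*, *Atp6v1b2*, *Atp6v1c1* and *Atp6v1h*. For *Atp6v1h* the searched transcript had 2049 bases, beside 9746 bases of annotated exon. Of the *Atp6v0c* stretches 32.5% were shared with other annotated genes, among them the pseudogene *Atp6v0c-ps2*, and reads that mapped to several places had been left out of the counts, so the level of *Atp6v0c* is uncertain. The shared part was 2.42% for *Atp6v0b*, 0.956% for *Atp6v1a* and 0.359% for *Atp6v1d*.

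In control livers the 10 genes were all expressed, and *Atp6v0d1* had the highest level per length. Divided by the kilobases of annotated exon, its normalized count was 404 ± 17.6 (SD, n = 3) in water-PBS mice. *Atp6v0b*, whose product belongs to the membrane ring, followed at 182 ± 4.72, then *Atp6v0d2* at 146 ± 20.7 and *Atp6v1a*, the catalytic A subunit, at 126 ± 1.58. *Atp6v1b2* (the B subunit, 115 ± 6.09 per kb) and *Atp6v0c* (the ring subunit c, 112 ± 1.74 per kb) overlapped each other. *Atp6v1c1*, *Atp6v0a1*, *Atp6v1d* and *Atp6v1h* lay between 64.4 and 74.2 per kb, and neighbours among them did not differ beyond their spread. *Atp6v0d2* overlapped *Atp6v1a* in water-PBS. Its place in the order was rank 3 in water-PBS, rank 2 in both zinc groups and rank 5 in water-Dex, while *Atp6v0d1* had rank 1 in each. With the longest annotated transcript as the length *Atp6v0d1* and *Atp6v0b* again led in water-PBS, and *Atp6v0d2* had rank 5.

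**Figure D1:**
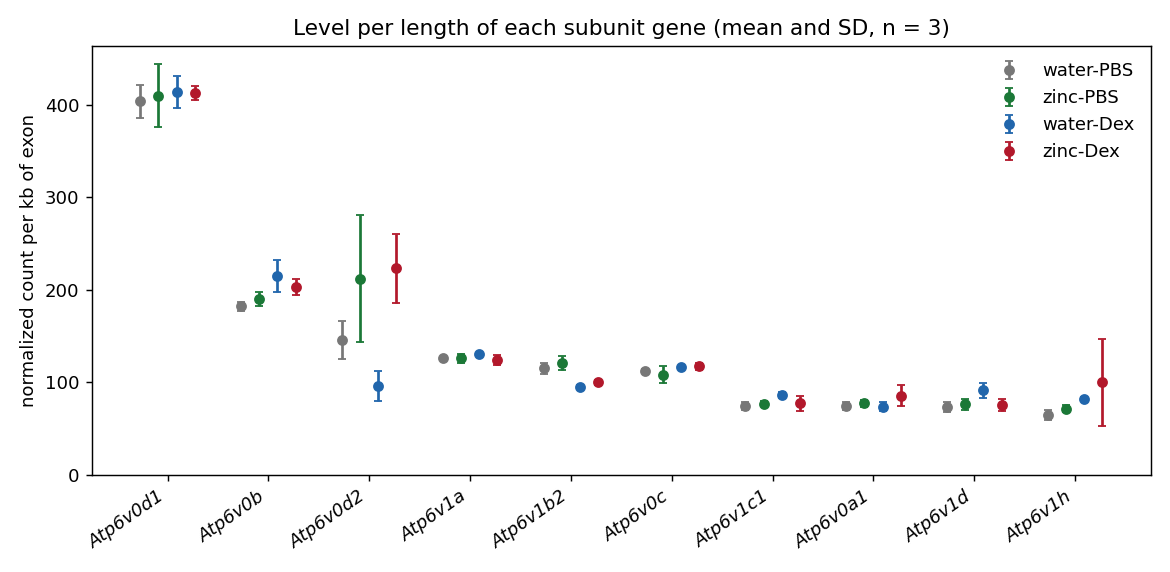
Level of each subunit gene, as normalized read count per kilobase of exon (vertical axis), by gene (horizontal axis, in the order of the water-PBS level). Points are means and bars are SD of 3 mice per group. *Atp6v0d1* is highest in each group. *Atp6v0d2* has the widest separation between water-Dex (95.8 per kb) and zinc-Dex (223 per kb), the comparison for which it was chosen.

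The level of *Atp6v0d2* was lowest in mice given Dex without zinc. Its normalized counts, given here and for the genes that follow in the order of replicates 1 to 3, were 339, 397 and 451 for water-PBS and 769, 399 and 557 for zinc-PBS. They were 305, 261 and 216 for water-Dex and 707, 502 and 605 for zinc-Dex. Each water-Dex mouse was thus below each mouse of the other groups, each zinc-Dex mouse was above each water-PBS mouse, and the zinc-PBS mice ran from the control range up to the highest value of all.

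The group means were 396 ± 56.1 in water-PBS, 575 ± 186 in zinc-PBS, 260 ± 44.4 in water-Dex and 605 ± 103 in zinc-Dex (SD, n = 3). Zinc-Dex exceeded water-Dex by a log2 fold change of 1.22 (SE 0.215), that is 2.32-fold, which is the value for which the gene was chosen. Across 19 other ways of fitting the data, 12 of them with 1 library left out, this value lay between 1.09 and 1.34. These fits reuse the libraries behind the choice, so the range is a description and no support for the value. Water-Dex was lower than water-PBS (log2 fold change -0.60, SE 0.216) and zinc-Dex was higher than water-PBS (0.61, SE 0.213), both without overlap of the mice. Zinc-Dex and zinc-PBS overlapped and differed by 0.07 (SE 0.211). The zinc effect in Dex-injected mice was larger than that in PBS-injected mice by 0.68 (SE 0.302), and this value was 0.95 without zinc-PBS replicate 1 and 0.47 without zinc-PBS replicate 2.

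The one comparison of *Atp6v0d2* whose groups were not behind its choice is zinc-PBS with water-PBS, although the SE and the adjusted p come from a fit in which all 12 libraries share the estimate of the spread. The log2 fold change was 0.54 (SE 0.212, 95% interval 0.12 to 0.95), with overlapping groups, and it did not pass the test after adjustment over all genes (DESeq2 adjusted p = 0.506). The 3 zinc-PBS mice were far apart, and the value was 0.27 without replicate 1 and 0.74 without replicate 2. Without replicate 2 the adjusted p was 0.0477. It was 0.0477 or higher in each of the 19 alternatives, and 18 of them left the gene uncalled.

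**Figure D2:**
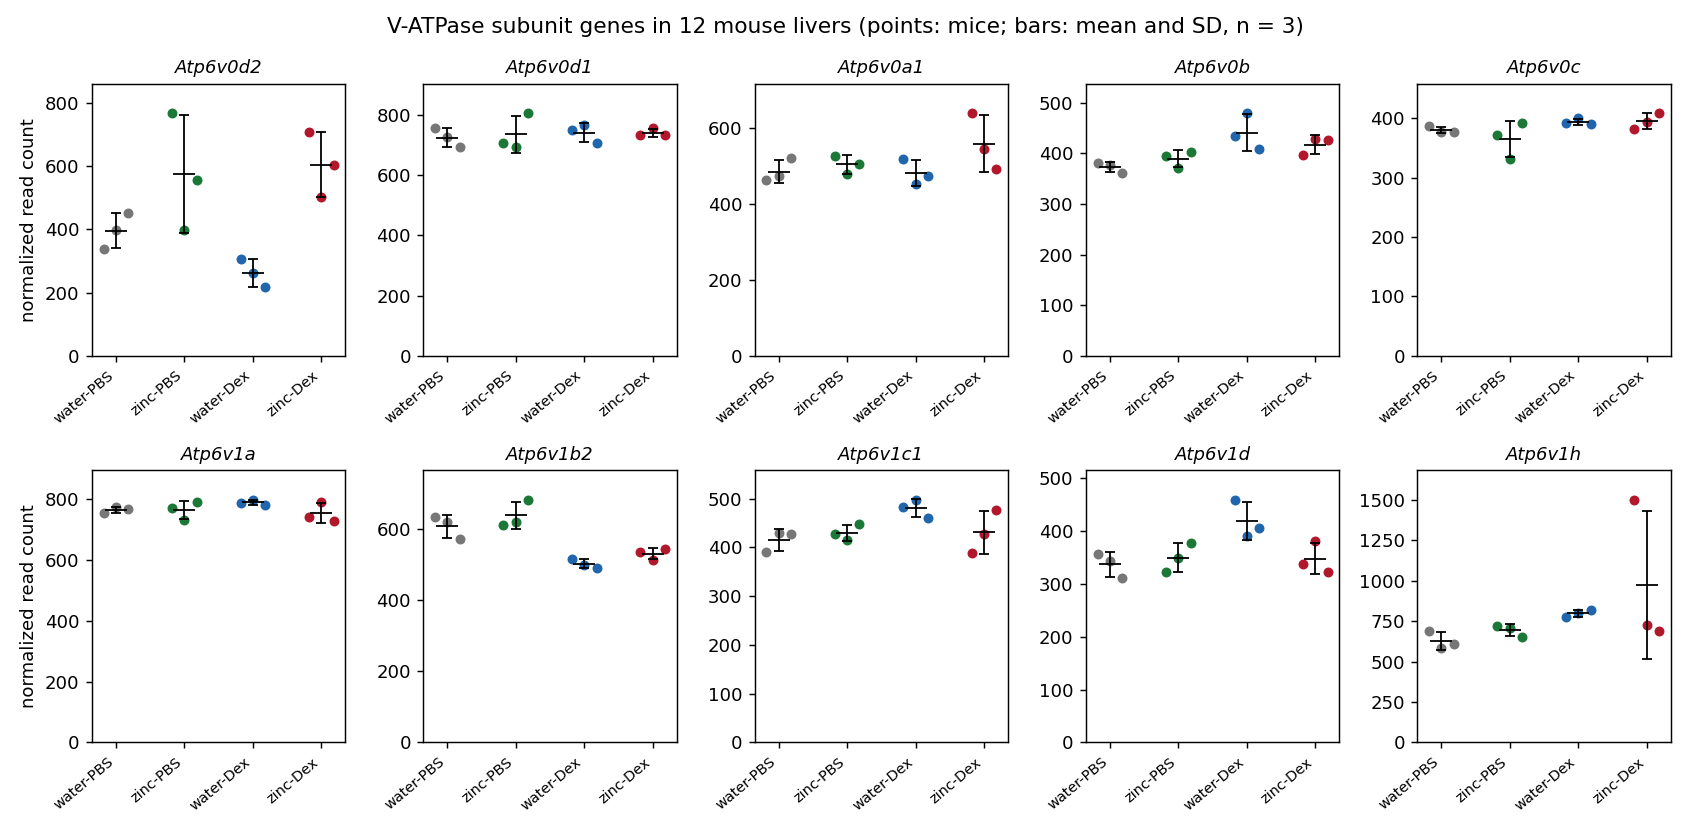
Normalized read count (vertical axes, from 0, a scale per gene) of the 10 subunit genes in each mouse, by group (horizontal axes). Points are mice in the order of replicates 1 to 3, and bars show the mean and SD (n = 3). *Atp6v0d2* is lowest in the 3 water-Dex mice (216 to 305), and *Atp6v1h* has a single high mouse in zinc-Dex (1502).

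The partner isoform gene *Atp6v0d1* was nearly flat. It stood at 755, 725 and 692 in water-PBS mice, at 706, 695 and 807 in zinc-PBS, at 749, 768 and 707 for water-Dex and at 733, 756 and 733 for zinc-Dex. The 4 groups overlapped, and its log2 fold changes lay between -0.00 and 0.03 in the comparisons between groups. In zinc-PBS against water-PBS the interval was -0.15 to 0.19.

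The ratio of the d isoform genes therefore followed *Atp6v0d2*. Per kilobase of exon, *Atp6v0d2* had 0.297, 0.361 and 0.431 times the level of *Atp6v0d1* in water-PBS mice and 0.719, 0.379 and 0.456 times in zinc-PBS. It had 0.268, 0.224 and 0.201 times in water-Dex and 0.637, 0.438 and 0.544 times in zinc-Dex. The mean ratio was 0.363 ± 0.0671 in water-PBS, 0.518 ± 0.179 in zinc-PBS, 0.231 ± 0.0341 in water-Dex and 0.54 ± 0.0993 in zinc-Dex. *Atp6v0d1* was the higher of the pair in each mouse.

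**Figure D3:**
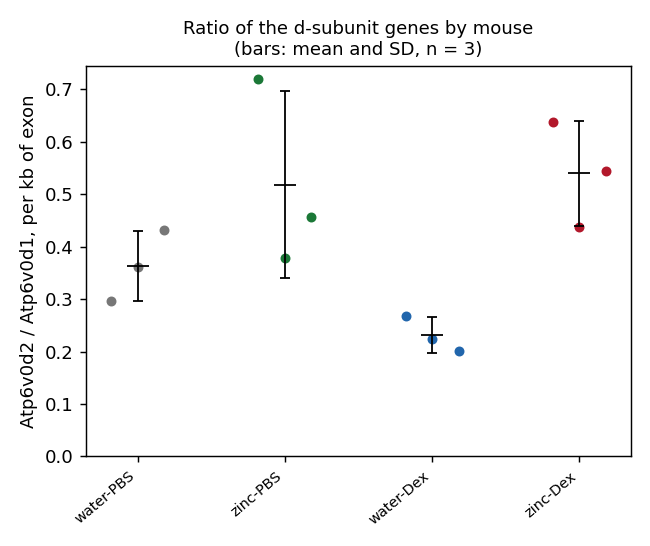
Ratio of the *Atp6v0d2* level to the *Atp6v0d1* level, both per kilobase of exon (vertical axis, no unit), in each mouse by group (horizontal axis). Points are mice, and bars show the mean and SD (n = 3). The 3 water-Dex mice lie at 0.201 to 0.268, under all other mice, and each of the 12 ratios is under 1.

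*Atp6v0d2* was chosen for its difference between zinc-Dex and water-Dex, so the contrast with the other members is a description. None of the other 9 subunit genes had a difference of that size between these groups. Their log2 fold changes ran from -0.27 (*Atp6v1d*) to 0.29 (*Atp6v1h*), with a median of -0.00, and the median of all genes tested was 0.00191. The difference between the zinc effects in Dex-injected and PBS-injected mice lay between -0.33 (*Atp6v1d*) and 0.16 (*Atp6v0a1*) for these 9 genes. Across all genes 1.35% of 12786 tested were called in zinc-Dex against water-Dex, and 0.0229% of 26185 in the difference of the zinc effects. Set against the water-PBS mean, the median of the 9 genes stayed between -0.04 and 0.11 (log2) in each of the 12 libraries, whereas *Atp6v0d2* ranged from -0.86 to 0.97.

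The spread over the 12 libraries includes the zinc-Dex and water-Dex values for which *Atp6v0d2* was chosen, so it is a description. The SD of log2 normalized counts was 0.57 for *Atp6v0d2*, above that of 90.8% of 11360 genes whose mean was 20 normalized counts or more. It was 0.05 for *Atp6v1a*, with 0.0616% of genes below it, 0.07 for *Atp6v0d1* and 0.08 for *Atp6v0c*, and the median gene had 0.21. *Atp6v1h* had an SD of 0.35, with 1 library far above the others. Within groups the SD was 0.31 for *Atp6v0d2* and 0.32 for *Atp6v1h*, above that of 88.5% and 89.5% of these genes, so part of the spread was between mice of the same group.

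For zinc alone none of the 10 genes passed the threshold. In zinc-PBS against water-PBS DESeq2 called 0 of 10, 1 gene (*Atp6v0d2*) had an unadjusted p under 0.05, and edgeR likewise called 0 with 1 such gene. The background was low too, since 0.341% of 12307 genes tested were called. The log2 fold changes had a median of 0.05, and all but that of *Atp6v0d2* lay between -0.06 (*Atp6v0c*) and 0.15 (*Atp6v1h*). The interval of *Atp6v1h* reached 0.58.

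Dex alone moved 2 of the 9 genes that could be tested, both in V1 and in opposite directions. In water-Dex against water-PBS *Atp6v1b2* fell and *Atp6v1d* rose, which is 22.2% of the 9, near the background of 21.6% of 14221 genes tested (11.7% higher and 9.91% lower). *Atp6v1b2* encodes the B subunit isoform that is found in most tissues. Its normalized counts were 635, 620 and 573 in water-PBS mice and 613, 621 and 684 in zinc-PBS, against 517, 501 and 492 for water-Dex and 537, 515 and 544 for zinc-Dex. All 6 Dex-injected mice were below all 6 PBS-injected mice. The log2 fold change was -0.28 (SE 0.0895, DESeq2 adjusted p = 0.0126) in mice on water and -0.26 (SE 0.0882, adjusted p = 0.0174) in mice on zinc. Zinc-Dex against water-PBS gave -0.20 with an adjusted p of 0.14.

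*Atp6v1d* encodes the central stalk. It had 356, 343 and 311 normalized counts in water-PBS mice, 322, 349 and 377 in zinc-PBS, 459, 391 and 406 for water-Dex and 338, 380 and 323 for zinc-Dex. The water-Dex mice were above all others, and the remaining groups overlapped. The log2 fold change for Dex alone was 0.31 (SE 0.116, adjusted p = 0.0345), and in zinc-Dex against zinc-PBS it was -0.01 (SE 0.116, adjusted p = 0.97). Zinc-Dex lay below water-Dex by 0.27 without overlap (log2 fold change -0.27, SE 0.116), a description for the reason given above. Both Dex calls in mice on water depended on single mice and on the libraries in the fit. With only the 6 libraries compared both were lost (adjusted p = 0.0996 for *Atp6v1b2* and 0.0948 for *Atp6v1d*), as was the *Atp6v1b2* call in mice on zinc (0.112). *Atp6v1b2* lost its call when water-PBS replicate 1 or 2 or water-Dex replicate 2 or 3 was left out (adjusted p up to 0.0842), and *Atp6v1d* lost it when water-PBS replicate 2 or 3, zinc-PBS replicate 2 or water-Dex replicate 1 or 3 was omitted (up to 0.215). In mice on zinc the *Atp6v1b2* call was lost without zinc-PBS replicate 3 or any 1 of the zinc-Dex mice (up to 0.148).

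The remaining Dex differences in mice on water did not pass the threshold. *Atp6v0b* had 381, 376 and 362 normalized counts in water-PBS mice and 435, 480 and 408 in water-Dex, which did not overlap, with 394, 371 and 403 in zinc-PBS and 396, 429 and 427 in zinc-Dex. Its log2 fold change for Dex alone was 0.24 (SE 0.1, DESeq2 adjusted p = 0.0731), and edgeR called it (adjusted p = 0.0384). *Atp6v0b* shares 243 bases of exon with *Gm12841* on the opposite strand, and *Gm12841* was listed at 0 in all 12 libraries. *Atp6v1c1*, the C subunit, had 390, 429 and 428 in water-PBS, 427, 415 and 447 in zinc-PBS, 482, 498 and 461 for water-Dex and 389, 427 and 477 for zinc-Dex. Water-Dex was again above water-PBS without overlap (0.21, SE 0.103), with an adjusted p of 0.146. Zinc-PBS and zinc-Dex differed in *Atp6v1c1* by 0.01 (SE 0.103).

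*Atp6v1h*, the H subunit, had a single mouse far from the others. It had 689, 582 and 611 normalized counts in water-PBS mice, 720, 710 and 655 in zinc-PBS, 775, 800 and 819 for water-Dex and 1502, 726 and 689 for zinc-Dex. Zinc-Dex replicate 1 was thus far above the other zinc-Dex mice, which lay within or just above the zinc-PBS range. In zinc-Dex against water-PBS *Atp6v1h* was the 1 gene of 9 that was called (11.1%, against 14.8% of 21401 genes tested, 8.13% higher), with a log2 fold change of 0.63 (SE 0.221, adjusted p = 0.0316). Without zinc-Dex replicate 1 the value was 0.18 with an adjusted p of 0.27, and leaving out water-PBS replicate 2 or 3 also ended the call (adjusted p = 0.0889 and 0.0592). Dex alone gave 0.35 (SE 0.221, adjusted p = 0.295). The same 0.35 had an adjusted p of 0.00209 once zinc-Dex replicate 1 was out of the shared estimate of the spread. In zinc-Dex against zinc-PBS it was 0.48 (SE 0.22, adjusted p = 0.111), and the call was gained without zinc-Dex replicate 2 (0.0243) or 3 (0.0124). In zinc-Dex against water-Dex it was 0.29 and turned to -0.17 without zinc-Dex replicate 1. *Rgs20*, which shares 127 bases of exon with it on the opposite strand, had no count in that library. The cause of the high value was not tested.

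The 3 remaining genes were not called in any tested comparison. *Atp6v1a* was at 753, 772 and 765 normalized counts in water-PBS mice, 769, 731 and 789 in zinc-PBS, 786, 797 and 779 for water-Dex and 740, 790 and 727 for zinc-Dex. *Atp6v0c* was at 386, 376 and 377 in water-PBS, 371, 331 and 391 in zinc-PBS, 392, 400 and 390 for water-Dex and 382, 393 and 409 for zinc-Dex. *Atp6v0a1*, which encodes an isoform of the a subunit, was at 463, 473 and 521 in water-PBS, 528, 479 and 507 in zinc-PBS, 519, 452 and 475 for water-Dex and 641, 545 and 493 for zinc-Dex. The groups overlapped in most comparisons of these genes, and the intervals of the Dex effect in mice on water were -0.11 to 0.19 for *Atp6v1a*, -0.14 to 0.25 for *Atp6v0c* and -0.24 to 0.22 for *Atp6v0a1*. No member called in any of the 4 tested comparisons had an absolute log2 fold change over 0.8. With both thresholds 0.138% of all genes tested were called in zinc-PBS against water-PBS, 9.68% in water-Dex against water-PBS, 7.24% in zinc-Dex against water-PBS and 9.68% in zinc-Dex against zinc-PBS. In zinc-Dex against zinc-PBS *Atp6v1b2* was the 1 called gene of 9 (11.1%), with a background of 20.1% of 15657 genes, 9.08% lower. These comparisons share groups with each other, so their values are not independent.

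**Figure D4:**
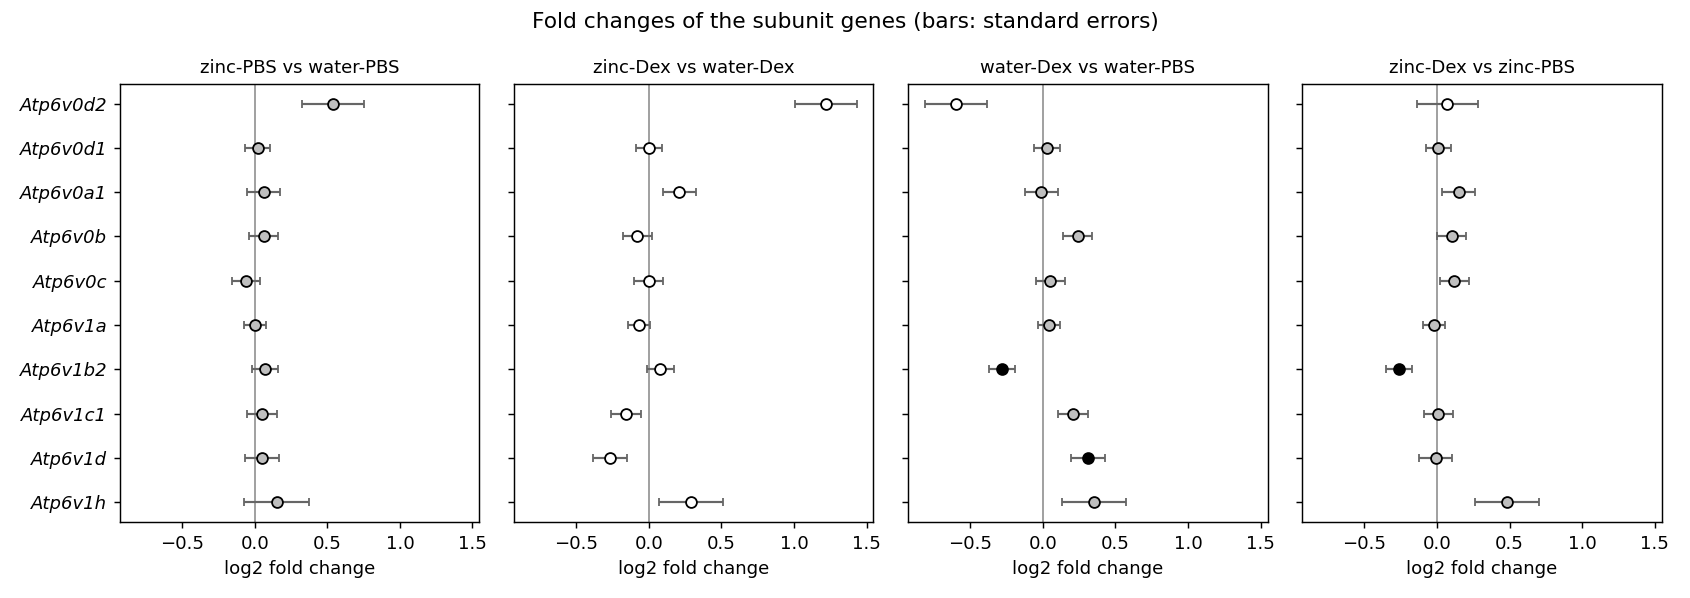
Log2 fold changes (horizontal axes) of the 10 subunit genes (rows) for zinc in PBS-injected and Dex-injected mice and for Dex in mice on water and on zinc, from DESeq2, with standard errors as bars. Black points were called (adjusted p under 0.05), grey points were tested and not called, and white points are descriptions without a test. *Atp6v0d2* stands at 1.22 for zinc in Dex-injected mice, the comparison for which it was chosen. The other 9 lie between -0.27 and 0.29 there.

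The genes whose pattern over the 12 libraries was most like that of *Atp6v0d2* were *Gjb2*, *Plpp3*, *Rab5b*, *Asgr2* and *Spp2*. Pearson's r of log2(normalized count + 1) was 0.943 for *Gjb2*, a gap junction protein, and 0.918 for *Plpp3*, a lipid phosphatase. It was 0.894 for *Rab5b*, an endosomal small GTPase, 0.888 for *Asgr2*, a subunit of the asialoglycoprotein receptor of hepatocytes, and 0.886 for *Spp2*, a secreted phosphoprotein. The 12 points share 4 groups and their treatments. After the group means were removed r was 0.719, 0.715, 0.853, 0.638 and 0.548 in that order. *Gjb2* was at 3037 ± 314 in water-PBS, 3740 ± 212 in zinc-PBS, 2431 ± 109 in water-Dex and 3887 ± 208 in zinc-Dex (normalized counts). That is the order of groups seen for *Atp6v0d2*, a description only, since likeness over these libraries was how the genes were picked. *Rab5b*, *Asgr2* and *Spp2* had the same order of means, while *Plpp3* was higher in zinc-PBS (2405 ± 131) than in zinc-Dex (2282 ± 181). Among the members r with *Atp6v0d2* ran from -0.66 (*Atp6v1d*) to 0.66 (*Atp6v0a1*).

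The cell types that could hold *Atp6v0d2* were looked at through their markers. None of 8 Kupffer cell markers was called in any comparison, and their summed normalized counts overlapped between groups, at 4916 to 6771 in water-PBS, 5558 to 5926 in zinc-PBS, 5225 to 6371 in water-Dex and 5196 to 5764 in zinc-Dex. The defining marker *Clec4f* was at 1816 ± 203 in water-Dex and 1734 ± 78.2 in zinc-Dex, and *Adgre1* at 395 ± 70.1 and 380 ± 12.4. At an unadjusted p under 0.05 2 of these markers passed for Dex alone and 0 in the other comparisons, and edgeR called 0.

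The 10 markers of recruited macrophages and osteoclasts, none of which was at 0 in all libraries, summed to 1483 to 1569 in water-PBS, 1411 to 1862 in zinc-PBS, 1375 to 1575 in water-Dex and 1603 to 1700 in zinc-Dex. The sum was thus higher in zinc-Dex than in water-Dex without overlap. Of the 4 markers tested there 0 were higher and 1 was lower, *Acp5* (log2 fold change -0.33, adjusted p = 0.0246, called in 8 of 19 alternatives). *Spp1*, which is also in the list of bile duct cell markers, and *Acp5* made up most of the sum. *Spp1* was at 636 ± 100 in water-Dex and 928 ± 106 in zinc-Dex and was not called, and *Acp5* went the other way (827 ± 46.2 and 659 ± 51.6). *Ccr2*, named after its values were seen, was lower in water-Dex than in water-PBS (10.1 ± 4.36 against 26.5 ± 4.51, DESeq2 adjusted p = 0.00991). It was also lower in zinc-Dex than in zinc-PBS (9.65 ± 2.92 against 33.9 ± 10.5, DESeq2 adjusted p = 0.000311). *Ccr2* was at 43.3 normalized counts or fewer in each library. *Gpnmb*, *Trem2*, *Mmp12*, *Ocstamp*, *Dcstamp* and *Ctsk* were at 13.5 normalized counts or fewer in each library. The 4 bile duct cell markers summed to 726 to 832 in water-PBS, 651 to 1147 in zinc-PBS, 584 to 800 in water-Dex and 936 to 1146 in zinc-Dex, and 0 of 4 were called in zinc-Dex against water-Dex (1 at an unadjusted p under 0.05, 0 by edgeR). The part of these cells in the *Atp6v0d2* result was not tested.

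Hepatocyte markers were at high levels throughout, with *Alb* at 961037 to 1349826 normalized counts, as the labelled tissue has. *Alb* rose with Dex in mice on water (0.30, adjusted p = 0.00123) and on zinc (0.29, adjusted p = 0.00204). Of 6 hepatocyte markers 3 rose with Dex in mice on water (all genes 21.6% called) and 4 in mice on zinc (20.1%), where edgeR called 3 and the call of *Ttr* was kept in 6 of 19 alternatives. Of 4 endothelial markers *Lyve1* rose with Dex (2.53 in mice on water), and of 4 pancreas markers 2 were at 0 in all libraries and 0 were called. Genes known to respond to the treatments were called in the known direction for zinc alone and for Dex alone. *Slc39a4*, a zinc importer, fell with zinc alone from 666 ± 95.3 to 236 ± 22.5 normalized counts (DESeq2 adjusted p = 7.2e-19). The metallothionein genes rose, *Mt1* from 349 ± 122 to 5106 ± 1479 (adjusted p = 1.2e-60) and *Mt2* from 27.8 ± 15.6 to 1169 ± 406 (adjusted p = 5.6e-42). Dex alone, in mice without zinc, also raised them above water-PBS, to 7558 ± 62.4 for *Mt1* and 2397 ± 145 for *Mt2* in water-Dex. In zinc-Dex against water-Dex *Slc39a4* fell (-1.54, called in 19 of 19 alternatives) and *Mt1* rose (0.84, 7 of 19), while *Mt2* was not called. The glucocorticoid receptor targets *Tat*, *Fkbp5* and *Tsc22d3* rose by 2.72, 3.12 and 2.28 (log2) with Dex in mice on water, and *Per1* rose from 137 ± 67.7 to 275 ± 14.6 normalized counts.

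Beyond the 10 members, 15 further genes encode V-ATPase subunits, of which 8 to 12 passed the filter on low counts in the comparisons between groups. With Dex 3 of 10 rose and 0 fell in mice on water, and 3 of 11 rose and 0 fell in mice on zinc, beside 21.6% and 20.1% of all genes tested that were called in either direction. *Atp6v0e*, a small subunit of V0, was at 285, 292 and 313 normalized counts in water-PBS mice and at 280, 295 and 332 in zinc-PBS. It was at 373, 402 and 353 for water-Dex and 385, 442 and 415 for zinc-Dex, so all Dex-injected mice were above all PBS-injected mice. It rose by 0.34 (SE 0.113, adjusted p = 0.0151) with Dex in mice on water, a call kept in 13 of 19 alternatives, and by 0.45 (SE 0.111, adjusted p = 0.000487) in mice on zinc, kept in 19 of 19. *Atp6ap1*, an accessory subunit, rose by 0.26 (adjusted p = 0.0252, 12 of 19 alternatives) and *Atp6v0a2*, another a isoform, by 0.29 (adjusted p = 0.0498, 4 of 19 alternatives) in mice on water, and *Atp6v1g1*, a subunit of the outer stalk, by 0.36 (adjusted p = 0.0205, 14 of 19) in mice on zinc. *Atp6v0a4*, named after its values were seen because it lies at 10.9 normalized counts or fewer, was the other call in mice on zinc (1.19 ± 0.529 in zinc-PBS and 7.81 ± 3.03 in zinc-Dex). In zinc-Dex against water-PBS 2 of 12 rose and 0 fell, *Atp6v0e* (0.48, 19 of 19 alternatives) and *Atp6v0a2* (0.32, 13 of 19), beside 14.8% of all genes. Their median log2 fold change with Dex was 0.18 in mice on water and 0.15 in mice on zinc, beside -0.0112 and -0.0107 over all genes tested. Zinc gave 0 calls in this list in PBS-injected and in Dex-injected mice, with 0 at an unadjusted p under 0.05 and 0 by edgeR.

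Of 8 factors that assemble the pump, 2 rose with Dex in mice on water and 2 in mice on zinc. Over all genes tested 21.6% and 20.1% were called. Among the 8, *Dmxl2* had a larger log2 fold change with Dex than any subunit gene averaging 50 normalized counts or more. *Dmxl2* encodes rabconnectin-3α, a part of the complex that helps V1 join V0. It was at 413, 268 and 347 normalized counts in water-PBS mice, 375, 318 and 320 in zinc-PBS, 728, 772 and 740 for water-Dex and 746, 818 and 722 for zinc-Dex, with no overlap between the Dex-injected and the PBS-injected mice. It rose by 1.13 (SE 0.138, adjusted p = 1.3e-14) in mice on water and by 1.17 (SE 0.137, adjusted p = 6.1e-16) in mice on zinc, in 19 of 19 alternatives each. *Ccdc115*, a chaperone of V0 assembly, rose by 0.54 (adjusted p = 0.0112, 17 of 19) in mice on water and 0.47 (adjusted p = 0.0286, 12 of 19) in mice on zinc. It shares 162 bases of exon with *Gm28306* on the same strand. Its partner *Tmem199* was not higher. The counts of *Tmem199* were 105, 86.5 and 97.7 in water-PBS, 79.4, 75.2 and 76 in zinc-PBS, 92.4, 95.7 and 91 for water-Dex and 57.6, 62.2 and 59.6 for zinc-Dex. It was lower in zinc-Dex than in water-Dex by 0.64 (log2 fold change -0.64, SE 0.187, adjusted p = 0.0497), a call kept in 4 of 19 alternatives, and lower than in water-PBS (-0.69, adjusted p = 0.00269, 19 of 19). In zinc-Dex against water-Dex 1 of 8 was called, beside 1.35% of all genes tested. In zinc-Dex against water-PBS 3 of 8 were called, beside 14.8%. Zinc alone gave 0 calls among the 8 (DESeq2, 0 at an unadjusted p under 0.05, 0 by edgeR), beside 0.341% of all genes tested.

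The pump is also a platform for nutrient sensing, where Ragulator and the Rag GTPases bring mTORC1 to the lysosome and the MiT/TFE factors switch lysosomal genes on. With Dex 21.6% of all genes tested were called in mice on water and 20.1% in mice on zinc. In the first list of 13 genes 1 was called with Dex, *Fnip2*, a partner of folliculin. *Fnip2* fell in mice on water (log2 fold change -0.80, SE 0.171, adjusted p = 4.3e-05) and in mice on zinc (-0.59, SE 0.169, adjusted p = 0.00358). It was at 384 ± 59.3 in water-PBS, 403 ± 86 in zinc-PBS, 221 ± 26.5 in water-Dex and 267 ± 24.9 in zinc-Dex. Of the 4 MiT/TFE genes *Tfeb* fell with Dex in mice on zinc (-0.87, SE 0.249, adjusted p = 0.00412), from 56.9, 73.4 and 72.4 in zinc-PBS to 33.7, 41.1 and 36.5 in zinc-Dex. In mice on water it was at 52.5, 57.3 and 79.1 in water-PBS and 53.8, 41.5 and 40.6 in water-Dex, which overlap, and 0 of 4 were called (0 at an unadjusted p under 0.05, 0 by edgeR). Whether the Dex effect on *Tfeb* differed between mice on water and on zinc was tested by the interaction, which called 0 of the 4 genes (0 at an unadjusted p under 0.05). Zinc gave 0 calls in either list, in PBS-injected and in Dex-injected mice, with 0 at an unadjusted p under 0.05 and 0 by edgeR.

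Of 29 genes for lysosomal enzymes and membrane proteins, 4 rose and 1 fell with Dex in mice on water, and 3 rose and 0 fell in mice on zinc. These shares stand beside 21.6% and 20.1% of all genes tested. *Ctsl*, a cysteine protease, rose by 0.43 (adjusted p = 0.00228) and 0.49 (adjusted p = 0.000301). It shares 1742 bases of exon with *Gm47123* on the opposite strand and 395 with *Gm49230* on the same strand, so its level is uncertain. *Lamp2* and *Scarb2*, which encode lysosomal membrane proteins, rose by 0.27 and 0.23 in mice on water (16 of 19 alternatives each) and by 0.27 each in mice on zinc (16 and 19 of 19). *Gusb*, the β-glucuronidase, rose by 0.34 (adjusted p = 0.0175) in mice on water, a call kept in 13 of 19 alternatives. *Lipa*, the lysosomal acid lipase, fell there (-0.23, adjusted p = 0.00306) and was named after its values were seen. The median log2 fold change of the list was -0.01 in both comparisons, beside -0.0112 and -0.0107 over all genes tested.

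In zinc-Dex against water-Dex 1 of these 29 genes was called, beside 1.35% of 12786 genes tested. *Npc1*, the cholesterol exporter of the lysosome, was at 844, 1153 and 934 normalized counts in water-Dex mice and at 1551, 1441 and 1622 in zinc-Dex, with 1021, 998 and 1017 in water-PBS and 1593, 1052 and 1255 in zinc-PBS. It rose by 0.66 (SE 0.146, DESeq2 adjusted p = 0.00215) in zinc-Dex against water-Dex, and 18 of 19 alternatives called it, the exception being edgeR (adjusted p = 0.0581). *Npc1* shares 511 bases of exon with *Rmc1* on the opposite strand. In zinc-PBS against water-PBS 0 of 29 were called, with 3 at an unadjusted p under 0.05 and 0 by edgeR. In zinc-Dex against water-PBS 4 rose, *Ctsl* (0.69), *Npc1* (0.60), *Lamp2* (0.30) and *Scarb2* (0.28), and *Lipa* fell (-0.23), beside 14.8% of all genes tested that were called.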

How the data were processed

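Total RNA from 12 livers was sequenced on a NextSeq 500 as stranded, single-end TruSeq libraries. Reads were mapped by the authors to mm10 with HISAT2 2.0.4 and counted per Ensembl gene with featureCounts, leaving out multimapping reads. The deposited values are raw counts without normalization. Neither the strand setting nor the annotation release used for counting is given in the sources used here, so overlapping genes are uncertain. Symbols came from GENCODE M21 for 54723 of 54838 genes.

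The members and lists were chosen with earlier results of these data known. DESeq2 1.42.0 (R 4.3.3) was fitted to the 12 libraries with 1 coefficient per group, using Wald tests, unshrunken fold changes and default filters, as the study's methods name DESeq2 with an FDR of 5%. The threshold for a call was an adjusted p under 0.05 (Benjamini-Hochberg, over all genes). Normalized counts are counts divided by DESeq2 size factors, and intervals are 95% Wald intervals. Named genes were the 10 members, called list genes averaging at least 50 normalized counts (at most 4 per list and comparison), the 5 genes most correlated with *Atp6v0d2*, and treatment and cell markers. For 1 value, the smallest p of an exact permutation test with 3 mice per group is 0.1, and the tests of genes therefore use a spread estimated over all genes.

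Alternatives were edgeR 4.0.16 (quasi-likelihood, TMM), TMM factors, at least 10 counts in at least 3 libraries, the replicate number as a term, only the 6 libraries compared, no independent filtering, no Cook's distance filter and leaving out each library. The scripts were tested on simulated data. No 2 libraries of a group agreed within sampling noise (chi-square per degree of freedom 6.2 to 20.7). The coding sequences of the d-subunit pair are not reported here.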

Additional observations from a re-analysis of the deposited data

Results flagged for a closer look

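*Atp6v1c1* is given for the side on which the mice on zinc lay of the mice on water. Against the mean log2 value of the matching mice on water, the 3 zinc-PBS mice lay at 0.00 to 0.11 and the 3 zinc-Dex mice at -0.30 to -0.01. Zinc-PBS replicate 2, at 415 normalized counts beside a water-PBS mean of 416, was level with that mean and lay just under it on the linear scale. The groups overlapped in both comparisons. The fitted log2 fold change was 0.05 (SE 0.103, 95% interval -0.15 to 0.25, DESeq2 adjusted p = 1) in PBS-injected mice and -0.16 (SE 0.103) in Dex-injected mice. The difference between the effects was not tested, since the zinc-Dex and water-Dex values belong to the comparison from which the members were chosen.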

How the results depend on the processing

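The number of members called was 0 for zinc alone, 2 for Dex alone, 1 for zinc-Dex against water-PBS and 1 for zinc-Dex against zinc-PBS, and with 1 library left out it lay between 0 and 1, 0 and 3, 0 and 1, and 0 and 1. For Dex alone it was 0 with the replicate block (*Atp6v1b2* adjusted p = 0.08, *Atp6v1d* 0.109) and 1 without independent filtering, which ended the *Atp6v1d* call (0.063). With only the 6 libraries it was also 1, but that gene was *Atp6v1h* (0.018), and *Atp6v1b2* (0.0996) and *Atp6v1d* (0.0948) were both lost. For zinc-Dex against water-PBS it was 2 with edgeR, which added *Atp6v1b2*, and 0 with only the 6 libraries. For zinc-Dex against zinc-PBS it was 0 with the replicate block (*Atp6v1b2* 0.0907) and 0 with only the 6 libraries. In the main fit no member called in these comparisons passed the fold threshold of 0.8, so these counts were 0 with it. Without zinc-Dex replicate 3 *Atp6v1h* reached 0.83 in zinc-Dex against water-PBS. Same-numbered libraries had correlations of -0.204 to 0.191 in their deviations from the group means, and differently numbered ones -0.245 to 0.284. The labels do not say what the numbers mark, and these values cannot exclude a shared cage or day.

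The other V-ATPase subunits had 3, 2 and 3 calls for Dex alone, zinc-Dex against water-PBS and zinc-Dex against zinc-PBS, and 0 to 2, 1 to 3 and 1 to 3 with 1 library left out. The replicate block gave 0 and 1 in the first comparisons, the 6 libraries 0, 1 and 1, and the fold threshold 0, 0 and 1. The assembly factors had 2, 3 and 2 calls, and 1 to 2, 2 to 3 and 1 to 2 with 1 library left out. In the last comparison the replicate block and the 6 libraries gave 1, and the fold threshold gave 1 in each. Their 1 call in zinc-Dex against water-Dex was 0 with any library left out, with the block, the 6 libraries, no independent filtering or the fold threshold. Ragulator and Rag genes had 3 calls with edgeR for Dex alone and for zinc-Dex against water-PBS in place of 1, 0 with the fold threshold, and 1 to 2, 0 to 1 and 0 to 1 with 1 library left out. The *Tfeb* call in zinc-Dex against water-PBS was 0 with the 6 libraries or the fold threshold and 0 to 1 with 1 library left out. The lysosomal genes had 5 calls for Dex alone, 2 with the 6 libraries and 2 to 5 with 1 library left out. Their 5 in zinc-Dex against water-PBS were 9 with edgeR and 8 with TMM factors, the count filter or no Cook's filter. They were 0 with the fold threshold, and 0 with edgeR in zinc-Dex against water-Dex.

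The longest transcript as the length moved the level per kilobase of 9 members by more than 1 SD. The untested *Atp6v1h* value in zinc-Dex against water-Dex turned from 0.29 to -0.17 without zinc-Dex replicate 1, and no called value changed direction. The causes were not tested. With 3 mice per group the SE of a member's log2 fold change was 0.0758 to 0.221 in these fits.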
